A study of Mus musculus with 24 samples.

Results

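Genes of the unfolded protein response and of the ATF4 stress programme were followed in mouse hindlimb muscle 3 h after a single bout of downhill running. The set was named by symbol and holds 10 genes of the 19057 with a symbol on the array: Hspa5, Hsp90b1, Pdia4 and Herpud1, which act in the endoplasmic reticulum (ER), and Atf4, Ddit3, Trib3, Chac1, Asns and Sesn2, the factor ATF4 and genes it controls. They are read by 19 probes. Of these, 3 (1 for Asns and 2 for Sesn2) were detected on 1 array at most, which left 16 probes, and all 10 genes, in the tests.

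Muscle was the gastrocnemius-soleus complex, from female mice aged 5 weeks, with 1 Illumina bead array per sample and 6 arrays in each of 4 groups. The groups were exercised transgenic mice, transgenic mice at rest, exercised wild-type mice and wild-type mice at rest. Transgenic mice (TG, strain label α7Tg) overexpress the α7BX2 integrin, a receptor that ties muscle fibres to laminin. The sources used here do not give the promoter that drives it. Wild-type mice (WT) carried no transgene. Exercised mice ran once downhill at 20° and 17 m/min for 40 min, after a warm-up of 2 min that began at 10 m/min. The protocol counts 6 females in each group, as many as there are arrays, but the labels do not tie an array to a mouse, so p-values measure the spread between these samples. The series asks how the integrin alters the transcriptional response of muscle to eccentric exercise, in which contracting muscle is lengthened.

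Proteins that enter the ER are folded there by chaperones and disulfide isomerases. When unfolded protein builds up, the sensors IRE1, PERK and ATF6 raise chaperone and degradation genes through the factors XBP1 and ATF6, and PERK slows translation by phosphorylating eIF2α. Phosphorylated eIF2α favours translation of ATF4, which raises genes of amino acid supply and redox balance together with CHOP, the product of Ddit3. Amino acid shortage and other stresses reach ATF4 through other eIF2α kinases, so its targets can move without the chaperones. In skeletal muscle both arms are known to respond to exercise.

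Some promoters of the set hold the letters of sites known for these 2 arms, and 4 are printed because the results turn on these genes. Sequences are RefSeq promoters of build GRCm38.p6, from 250 bases before to 50 bases after the start, and all 10 genes were matched. Capitals mark the CCAAT and CCACG boxes of an ER stress element (9 bases apart), the joined boxes of the second ER stress element (ATTGG and CCACG, 1 base apart) and the ATF4-CEBP composite site TGATGNAA, each searched on both strands.
Hspa5 (chr2:34771840-34772139, plus strand): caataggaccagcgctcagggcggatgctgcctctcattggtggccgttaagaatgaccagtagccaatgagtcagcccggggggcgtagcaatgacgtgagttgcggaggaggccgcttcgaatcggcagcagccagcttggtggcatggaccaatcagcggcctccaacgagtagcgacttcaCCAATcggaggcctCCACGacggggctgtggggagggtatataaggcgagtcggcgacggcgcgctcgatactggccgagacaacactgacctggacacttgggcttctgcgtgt
Hsp90b1 (chr10:86705395-86705694, minus strand): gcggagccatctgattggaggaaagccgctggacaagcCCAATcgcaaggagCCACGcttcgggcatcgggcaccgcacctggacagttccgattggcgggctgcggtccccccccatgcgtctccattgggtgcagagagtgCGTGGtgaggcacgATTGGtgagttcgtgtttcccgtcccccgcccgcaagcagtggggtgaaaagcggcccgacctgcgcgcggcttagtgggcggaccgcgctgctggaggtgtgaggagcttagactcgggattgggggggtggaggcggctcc
Herpud1 (chr8:94386179-94386478, plus strand): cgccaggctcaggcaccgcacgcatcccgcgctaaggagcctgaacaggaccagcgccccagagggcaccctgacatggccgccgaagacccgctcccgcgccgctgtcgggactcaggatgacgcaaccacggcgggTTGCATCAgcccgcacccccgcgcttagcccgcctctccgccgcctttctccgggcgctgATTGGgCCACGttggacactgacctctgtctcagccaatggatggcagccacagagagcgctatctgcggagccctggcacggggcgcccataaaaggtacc
Chac1 (chr2:119350992-119351291, plus strand): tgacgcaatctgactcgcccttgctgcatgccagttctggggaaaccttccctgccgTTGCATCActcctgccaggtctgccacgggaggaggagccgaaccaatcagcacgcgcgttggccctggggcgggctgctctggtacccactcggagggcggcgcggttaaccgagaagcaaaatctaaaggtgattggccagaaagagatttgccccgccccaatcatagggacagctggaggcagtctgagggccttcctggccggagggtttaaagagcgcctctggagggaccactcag
The ER stress element occurred 1 time in Hspa5, from base -65 to -47, and 2 times in Hsp90b1, from -212 to -194 and from -107 to -89, the second copy on the other strand. Of 32851 promoters of this length, 0.119% held it. The second ER stress element stood in Herpud1 from -52 to -42 and in 0.0365% of all promoters. The composite site stood in Herpud1 (-112 to -105), Chac1 (-193 to -186), Asns (-23 to -16) and Trib3 (15 to 22 bases after the start), and in 3.97% of all promoters. Each ER stress element contains a CCAAT and a CCACG box by its definition, and in these 10 promoters no composite site overlapped any other motif. The promoters of Pdia4, Atf4, Ddit3 and Sesn2 held none of the 3 sites in this window.

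Levels are log2 signals after background correction and quantile normalisation, and every difference below is a difference of log2 signals. Median raw signals of the arrays lay between 105.2 and 137.9, and 40.2% to 46.2% of probes were detected. Of 14 fast fibre genes 13 were tested, all 13 detected on every array, and their mean was 14.65 to 14.87 on every array, so the defining markers of this muscle were present. The mean of 13 slow fibre genes varied more, from 10.95 to 13.12, so the arrays were not uniform in fibre type markers. The 2 Itga7 probes gave genotype differences of 0.11 (SE 0.22) and 0.06 (SE 0.23), with an adjusted p of 1 for both. The sources used here do not say whether these probes read the transgene, so they check no label. Markers of lymphocytes (15 of 20 tested) set 11 arrays apart, with means of 7.63 to 10.03, from 13 arrays at 5.67 to 6.14. The high arrays were 4 of 6 exercised and 2 of 6 resting TG arrays, and 2 of 6 exercised and 3 of 6 resting WT arrays. The list's mean ranged from 5.67 to 10.03 in exercised TG, 5.69 to 9.08 in TG at rest, 5.71 to 9.75 in exercised WT and 5.70 to 9.59 in WT at rest. In whole muscle fewer cells of a type and less RNA per cell cannot be told apart.

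No member passed an adjusted p of 0.05 (limma, Benjamini-Hochberg over 21788 probes) in any of the 7 comparisons. In those comparisons few probes passed at all. After the run, averaged over genotypes, 0.00918% of probes were called, and these were the metallothionein genes Mt1 and Mt2. In TG mice the share was 0.00459%, in WT mice 0%, and for the difference between the 2 run effects 0%. Between genotypes 0.078% were called at rest, 0.0872% after exercise and 0.225% over both states (17, 19 and 49 probes, and 3, 3 and 8 with the replicate number as a block). Members are therefore described by their values, standard errors (SE) and 95% intervals.

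By unadjusted p under 0.05, 3 of 10 genes stood out after the run averaged over genotypes, where 3.79% of all probes did. These were Hsp90b1, Hspa5 and Pdia4, all with higher means after the run and all ER chaperones or folding enzymes. In TG mice there were 4 of 10, the same 3 and Chac1, against 4.44% of probes. In WT mice there was 1, Hsp90b1, against 2.07%. The difference between the run effects gave 1, Chac1, by the brightest probe of each gene, against 2.27%. For genotype at rest there were 2, Herpud1 and Chac1, against 2.89%, for genotype after exercise 0 by the brightest probes, against 2.98%, and over both states 1, Herpud1, against 3.11%. The set was proposed with earlier results on these arrays known, so these counts describe the members and are no independent evidence.

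Hsp90b1 encodes GRP94, the HSP90 chaperone of the ER, and had higher means after the run in both genotypes. Exercised TG arrays ranged from 12.13 to 12.56 with a median of 12.30, against 11.88 to 12.18 with a median of 12.03 in TG at rest. Exercised WT arrays ranged from 12.00 to 12.60 with a median of 12.47, against 11.59 to 12.26 with a median of 12.09 in WT at rest. Of 12 exercised arrays 9 lay above every resting array, and none lay below all of them. The averaged difference was 0.32 (SE 0.09, 95% interval 0.14 to 0.50, 1.25-fold), ranked 46 among 21788 probes, with an adjusted p of 0.51 in limma. It was 0.31 (SE 0.12) in TG and 0.34 (SE 0.12) in WT mice, and these run effects differed by -0.03 (interval -0.39 to 0.33). In the other 35 settings tried the averaged difference stayed between 0.28 and 0.40. Over the lymphocyte-low arrays alone it was 0.40 (SE 0.14). Correlations of Hsp90b1 with the 9 marker lists ran from -0.19 to 0.14 over 24 arrays.

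Hspa5 encodes BiP (GRP78), the HSP70 chaperone that holds the ER sensors inactive. It ranged in exercised TG arrays from 6.67 to 8.19 with a median of 7.04, against 5.99 to 7.33 with a median of 6.72 in TG at rest. Exercised WT arrays ranged from 6.58 to 7.20 with a median of 6.99, against 6.25 to 6.92 with a median of 6.59 in WT at rest. The groups overlapped in both genotypes, and the TG groups were wider (SD 0.59 exercised and 0.61 at rest) than the WT groups (SD 0.21 and 0.29). TG arrays at rest fell into 3 at 5.99 to 6.37 and 3 at 7.08 to 7.33. The averaged difference was 0.48 (SE 0.18, interval 0.11 to 0.86, 1.4-fold, adjusted p = 0.998). It was 0.60 (SE 0.25) in TG and 0.37 (SE 0.25) in WT mice, with a difference of 0.23 (interval -0.51 to 0.97) between them. The only Hspa5 probe was detected on every array but dim. Its raw signals were 132.5 to 425.9, where array medians were 105.2 to 137.9, so the size of its differences depends on the background correction. Without background correction the averaged difference was 0.24 (SE 0.09) and the TG difference 0.31 (SE 0.13). Of 11 tested fibroblast genes, 10 had higher means in exercised than in resting TG mice (median 0.19) and 3 in exercised than in resting WT mice (median -0.12). Their part was not tested. Array deviations of Hspa5 correlated with the fibroblast (r = 0.64), macrophage (r = 0.52), endothelial (r = 0.51) and lymphocyte (r = -0.10) lists. Over the lymphocyte-low arrays alone the averaged difference was 0.43 (SE 0.25), and adjusted for the lymphocyte and slow fibre means it was 0.62 (SE 0.16, adjusted p = 0.0901).

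Pdia4 encodes ERp72, a protein disulfide isomerase of the ER. Its exercised TG arrays lay from 8.81 to 9.49 with a median of 9.36, against 8.26 to 9.34 with a median of 8.84 in TG at rest. Its exercised WT arrays lay from 9.00 to 9.48 with a median of 9.12, against 8.78 to 9.47 with a median of 9.09 in WT at rest. Resting TG arrays were the low group, and 4 of 6 exercised TG arrays lay above all of them. The difference was 0.46 in TG (SE 0.16, interval 0.12 to 0.80, adjusted p = 0.889) and 0.05 in WT mice (SE 0.16). These effects differed by 0.41 (SE 0.23, interval -0.07 to 0.89, adjusted p = 0.935), so a difference between genotypes was not shown. At rest TG minus WT was -0.33 (interval -0.67 to 0.01). The macrophage list, which correlated with Pdia4 at 0.66, had all 11 tested genes with higher means in exercised than in resting TG mice and all 11 with lower means in TG than in WT at rest, and its part in these values was not tested. Neutrophil genes, which correlated with Pdia4 at 0.59, were higher after the run in 12 of 12 in TG mice (median 1.29) and in 8 of 12 in WT mice (median 0.10), and lower in TG than in WT at rest in 12 of 12 (median -0.61). Their part was not tested either. Adjusted for the array means of lymphocyte and slow fibre genes, the TG difference was 0.47 (SE 0.14), and over the lymphocyte-low arrays alone 0.51 (SE 0.24).

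**Figure D1:**
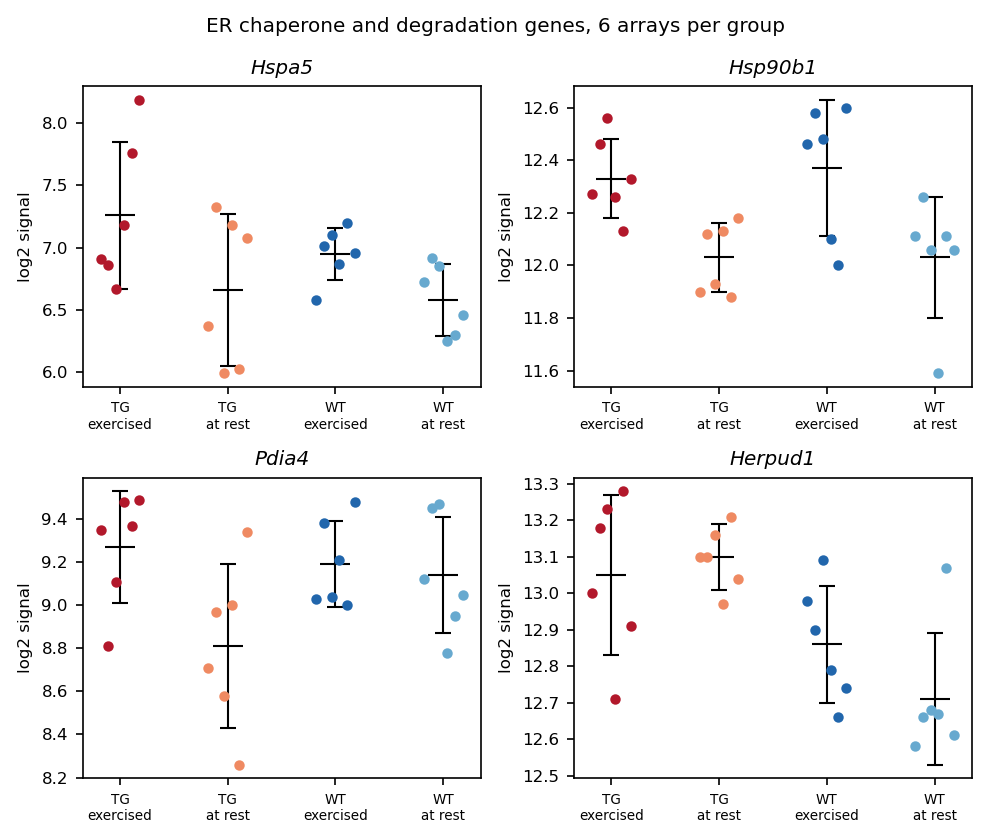
Log2 signal of the brightest probe of Hspa5, Hsp90b1, Pdia4 and Herpud1 in each of 24 arrays. Points are arrays, bars are the mean and SD of 6 arrays, and each panel has its own axis: exercised arrays lie higher in Hsp90b1, while in Herpud1 the means of exercised and resting TG arrays (13.05 and 13.10) lie above those of exercised and resting WT arrays (12.86 and 12.71).

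Herpud1, an ER membrane protein that helps to send misfolded proteins to the proteasome, had higher means in TG than in WT mice in both states. In exercised TG arrays it ranged from 12.71 to 13.28 with a median of 13.09, and in exercised WT arrays from 12.66 to 13.09 with a median of 12.85. TG arrays at rest ranged from 12.97 to 13.21 with a median of 13.10, against 12.58 to 13.07 with a median of 12.67 in WT at rest. At rest 5 of 6 WT arrays lay at 12.68 or lower, under every TG array, and the sixth stood at 13.07. Averaged over both states TG minus WT was 0.29 (SE 0.08, interval 0.13 to 0.45, 1.22-fold, adjusted p = 0.221). The second Herpud1 probe, which correlated with it at 0.81, gave 0.32 (SE 0.08, adjusted p = 0.146). The genotype difference was 0.39 at rest on both probes (SE 0.11), and 0.19 and 0.25 after exercise. The run difference was -0.05 (SE 0.11) in TG and 0.15 (SE 0.11) in WT mice.

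Herpud1 was the one member that any other setting called. Adjusted for the 2 tissue means, the genotype difference was again 0.29 (SE 0.07), with an adjusted p of 0.0396. Without replicate 8 of the exercised TG arrays, whose values of 12.71 and 12.16 were the lowest of that group on the 2 probes, the second probe gave 0.36 (SE 0.07, adjusted p = 0.0299). Under median scaling the brightest probe gave 0.22 (adjusted p = 1). Herpud1 correlated with the fast fibre (r = 0.66), slow fibre (r = 0.54) and adipocyte (r = -0.59) means. The second probe did so less, at 0.52, 0.29 and -0.40. At rest 12 of 13 slow fibre genes had higher means in TG than in WT mice (median 0.21), while 8 of 10 adipocyte genes (median -0.31) and 12 of 12 neutrophil genes (median -0.61) had lower ones. After exercise 13 of 13 slow fibre genes were lower in TG (median -0.30) and 8 of 10 adipocyte genes higher (median 0.14). Apart from the adjustment for 2 tissue means above, their part was not tested. Herpud1 lies on chromosome 8, which holds 965 of the 21788 tested probes. Of the 49 probes called between genotypes over both states 42 could be placed, 11 of them on chromosome 8. In gene order those 11 lay 466 to 581 genes before Herpud1, with Abhd8 the nearest.

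Atf4 encodes the factor that gives this arm its name, and its groups overlapped. Means were 12.52 ± 0.19 in exercised TG, 12.39 ± 0.10 in TG at rest, 12.46 ± 0.17 in exercised WT and 12.36 ± 0.14 in WT at rest (SD, n = 6 each). The run difference was 0.13 in TG (interval -0.08 to 0.34) and 0.10 in WT mice (interval -0.11 to 0.30). A second, dimmer Atf4 probe did not track the first (r = -0.13) and gave 0.13 in TG and -0.24 in WT mice, with both intervals including 0. ATF4 is set largely by translation, so its mRNA is an indirect reading of its activity.

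Ddit3 encodes CHOP, a factor induced by ATF4 that promotes cell death under lasting stress. In exercised TG arrays it ranged from 8.17 to 8.91 with a median of 8.36, against 8.15 to 9.24 with a median of 8.83 in TG at rest. In exercised WT arrays it ranged from 7.91 to 9.09 with a median of 8.71, against 8.16 to 9.13 with a median of 8.57 in WT at rest. All groups overlapped, with a run difference of -0.29 (SE 0.23) in TG and 0.04 (SE 0.23) in WT mice. The spread within groups went with the tissue markers. Over 24 arrays, with group means taken out, Ddit3 correlated at 0.83 with the slow fibre mean, at -0.83 with the macrophage and adipocyte means and at -0.69 with the lymphocyte mean. Its 2 probes correlated at 0.95, and the second gave a run difference of -0.28 (SE 0.22) in TG and 0.23 (SE 0.22) in WT mice. The run effects differed by -0.32 on the brighter probe and by -0.51 on the second, with both intervals including 0. Lymphocyte-high arrays averaged 8.34 ± 0.29 and ranged from 7.91 to 8.91, against 8.84 ± 0.32 with a range of 8.32 to 9.24 in the 13 low arrays (SD). Adjusted for the 2 tissue means, the run difference was -0.20 (SE 0.13) in TG and -0.13 (SE 0.13) in WT mice.

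Trib3, a pseudokinase that ATF4 and CHOP induce and that restrains AKT signalling, had overlapping groups. Means were 7.63 ± 0.28 in exercised TG, 7.49 ± 0.22 in TG at rest, 7.58 ± 0.15 in exercised WT and 7.59 ± 0.36 in WT at rest (SD, n = 6 each). The run difference was 0.14 (SE 0.15) in TG and -0.01 (SE 0.15) in WT mice. The other 2 Trib3 probes were dim, detected on 1 to 5 of 6 arrays in a group, and did not follow the first (r = 0.01 and 0.33). One of them gave a difference between the run effects of 0.55 (SE 0.24, adjusted p = 0.935), which the brightest probe, at 0.15 (SE 0.22), did not show.

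Asns encodes asparagine synthetase, a classic target of ATF4 in amino acid shortage. The exercised TG arrays lay from 8.55 to 9.46 with a median of 9.05, against 7.94 to 9.52 with a median of 8.55 in TG at rest. The exercised WT arrays lay from 8.46 to 9.53 with a median of 8.99, against 8.63 to 9.48 with a median of 9.17 in WT at rest. The run difference was 0.30 (SE 0.24) in TG and -0.12 (SE 0.24) in WT mice, and the second probe (r = 0.89) gave 0.32 and 0.01. At rest TG minus WT was -0.45 (interval -0.94 to 0.05). Asns followed the adipocyte mean (r = 0.77) and opposed the fast fibre mean (r = -0.68). Of 10 tested adipocyte genes, 8 had higher means after the run in TG mice (median 0.16) and 1 in WT mice (median -0.30), and 2 were higher in TG than in WT at rest. Their part was not tested. The genes most like it over 24 arrays, among 11564, were Mgll (monoglyceride lipase), Hcar1, a lactate receptor of fat cells, and Cgnl1, each at 0.90, then Tmem254a and Efna5 at 0.88.

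Sesn2, a stress sensor that binds leucine and holds back mTORC1, lay close to the detection limit. Means were 5.46 ± 0.38 in exercised TG, 5.53 ± 0.28 in TG at rest, 5.59 ± 0.36 in exercised WT and 5.55 ± 0.11 in WT at rest (SD, n = 6 each). The run differences of -0.07 (SE 0.17) in TG and 0.03 (SE 0.17) in WT mice were within their errors, and the offset of 16 added to each signal compresses differences at this level.

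Chac1 encodes an enzyme that breaks down glutathione and is a known target of ATF4 and CHOP signalling. It had the widest range of the set. Values in exercised TG arrays ran from 9.67 to 12.56 with a median of 10.52, against 11.16 to 13.00 with a median of 12.09 in TG at rest. Values in exercised WT arrays ran from 10.70 to 12.29 with a median of 11.34, against 10.37 to 11.60 with a median of 10.84 in WT at rest. Resting TG was the high group, with 5 of 6 arrays above every resting WT array, and 4 of 6 exercised TG arrays lay below every resting TG array.

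In TG mice the Chac1 run difference was -1.35 (SE 0.39, interval -2.17 to -0.54, 0.391-fold, adjusted p = 0.889). In WT mice it was 0.45 (SE 0.39, interval -0.36 to 1.27). The difference between these effects was -1.81 (SE 0.56, interval -2.96 to -0.65, adjusted p = 0.935), ranked 15 of 21788 probes in a comparison that called 0%. TG minus WT was 1.16 at rest (SE 0.39, interval 0.34 to 1.98, adjusted p = 1) and -0.65 after exercise (SE 0.39, interval -1.46 to 0.17). These values all draw on the same 4 group means.

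The Chac1 values after the run split with the lymphocyte markers, in opposite order in the 2 genotypes. In exercised TG mice the 2 lymphocyte-low arrays had 11.33 and 12.56, and the 4 high arrays 9.67 to 10.75. In exercised WT mice the 2 high arrays had 12.16 and 12.29, and the 4 low arrays 10.70 to 11.35. Over the 13 low arrays, with 2 exercised TG arrays among them, the run difference was -0.14 (SE 0.45) in TG and -0.05 (SE 0.40) in WT mice, and the difference between them -0.09 (SE 0.60). On those arrays TG minus WT was 1.00 at rest (SE 0.40) and 0.91 after exercise (SE 0.45), where all arrays gave -0.65. Adjusted for the 2 tissue means, the TG run difference was -1.30 (SE 0.41) and the difference between genotypes -1.79 (SE 0.57). This adjustment fits the same slope in all groups, so it cannot take out a relation of opposite order in the 2 genotypes. Leaving out single arrays kept the TG value between -1.71 and -1.13. The part of the lymphocyte markers in these values was not tested. Over all 24 arrays Chac1 correlated with no marker list beyond 0.14. That value pools the groups, so it cannot show relations of opposite order between them.

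**Figure D2:**
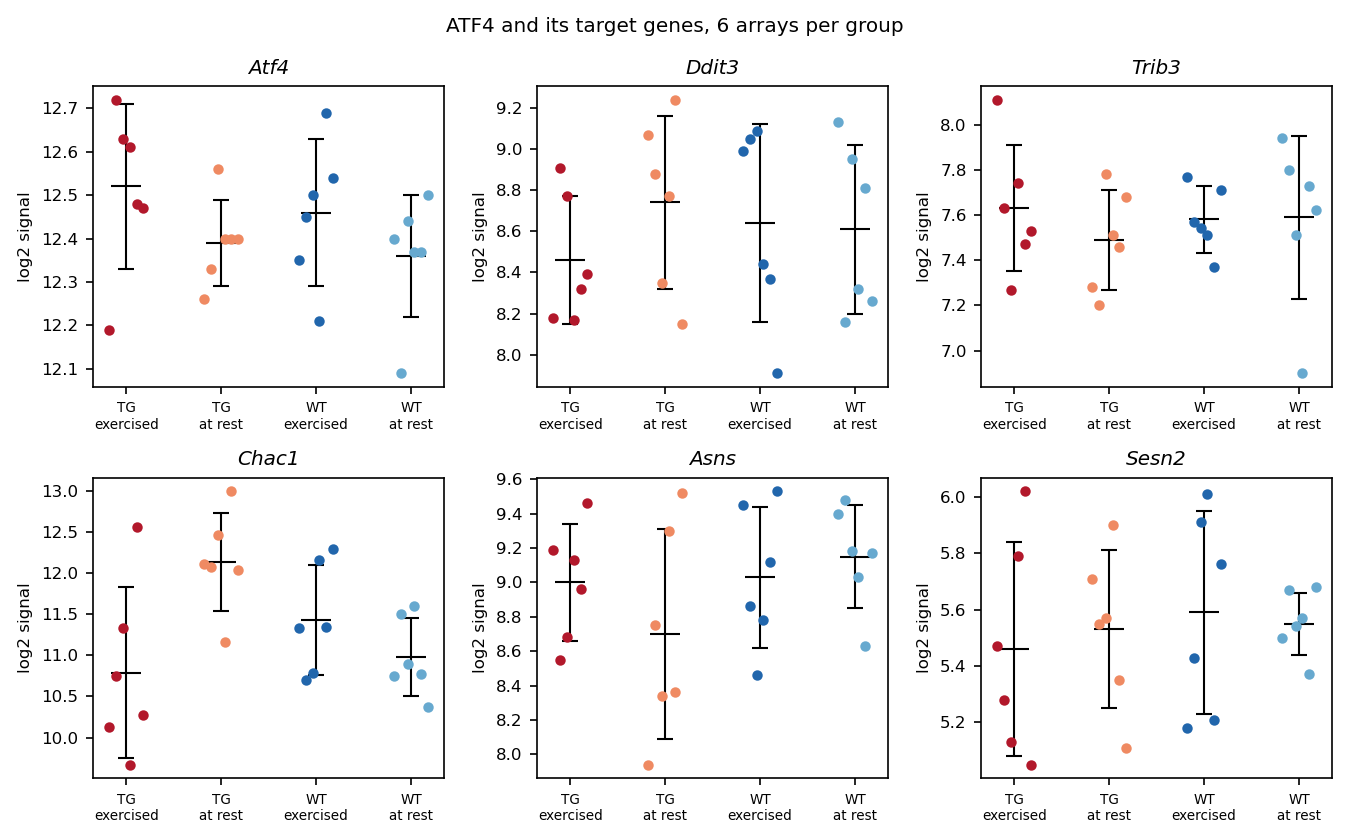
Log2 signal of the brightest probe of Atf4, Ddit3, Trib3, Chac1, Asns and Sesn2 in each of 24 arrays. Points are arrays and bars the mean and SD of 6 arrays, on a separate axis per gene: Chac1 spans 9.67 to 13.00, with the highest mean in TG at rest, and the groups overlap in every panel.

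**Figure D3:**
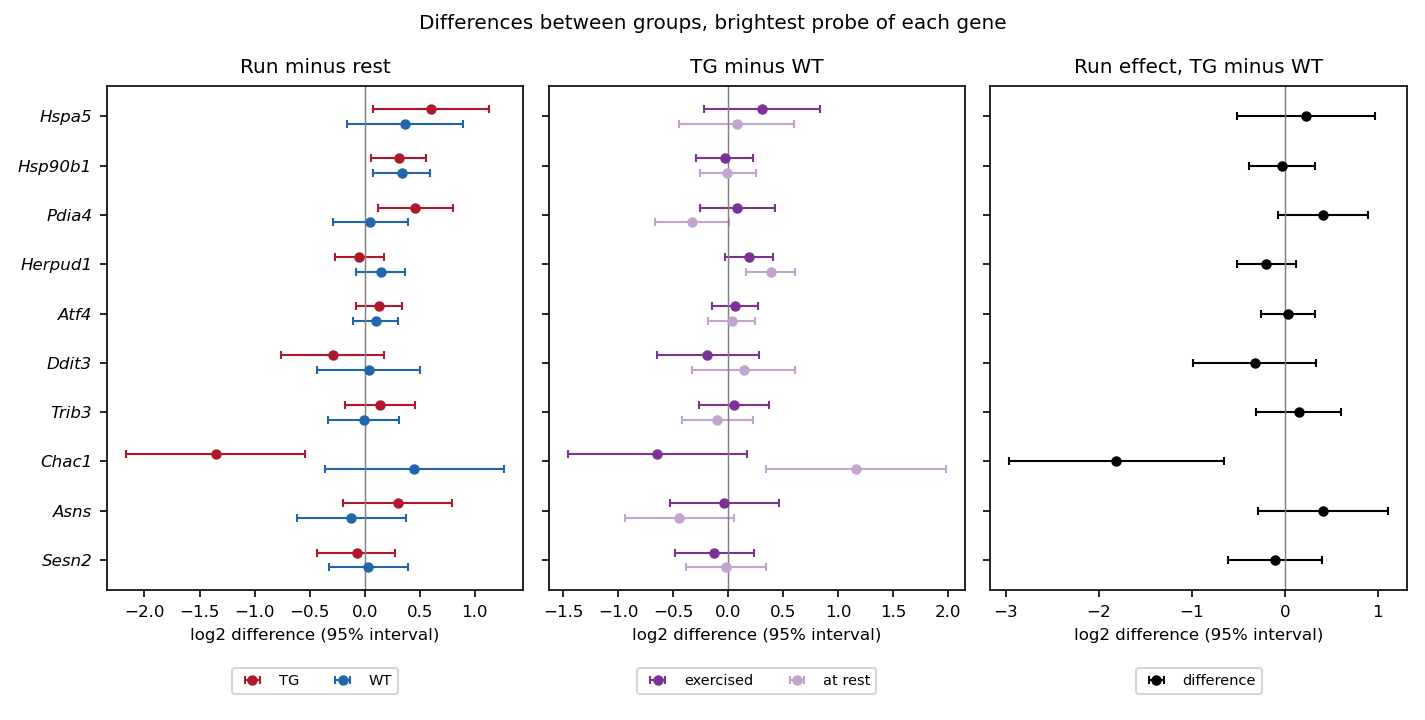
Log2 differences of the brightest probes with 95% intervals (limma): run minus rest in TG and WT mice, TG minus WT after exercise and at rest, and the run effect in TG minus that in WT. Hsp90b1 lies right of 0 in both genotypes, and Chac1 alone has an interval clear of 0 in the last panel (-2.96 to -0.65).

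From array to array the members fell into no single pattern. With group means taken out, over 24 arrays that share their RNA and hybridisation for every gene, Hspa5 and Pdia4 correlated at 0.69, Pdia4 and Asns at 0.67 and Hspa5 and Asns at 0.55. Herpud1 ran against Asns (r = -0.56) and Pdia4 (r = -0.43). The 2 Atf4 probes gave different relations. The brighter one correlated with Pdia4 at -0.29. The dimmer one correlated with Pdia4 at 0.53, with Hspa5 at 0.52 and with Herpud1 at -0.66, so no relation of Atf4 to these members can be read. Both correlated with the ATF4 target Chac1 at -0.09. Chac1 was closest to Herpud1 (r = 0.36). Among 11564 genes those most like Chac1 were Klf9 and Cebpb, both transcription factors, at 0.77, Etfbkmt and Fbxo32, the ubiquitin ligase atrogin-1, at 0.75, and Sgk1, a protein kinase, at 0.73. Those most like Hspa5 were Sfrp5, Fcgr3, Selenok and Cibar1 at 0.79 and Snu13 at 0.78. Selenok is itself an ER protein, and Fcgr3 is an Fc receptor of myeloid cells.

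**Figure D4:**
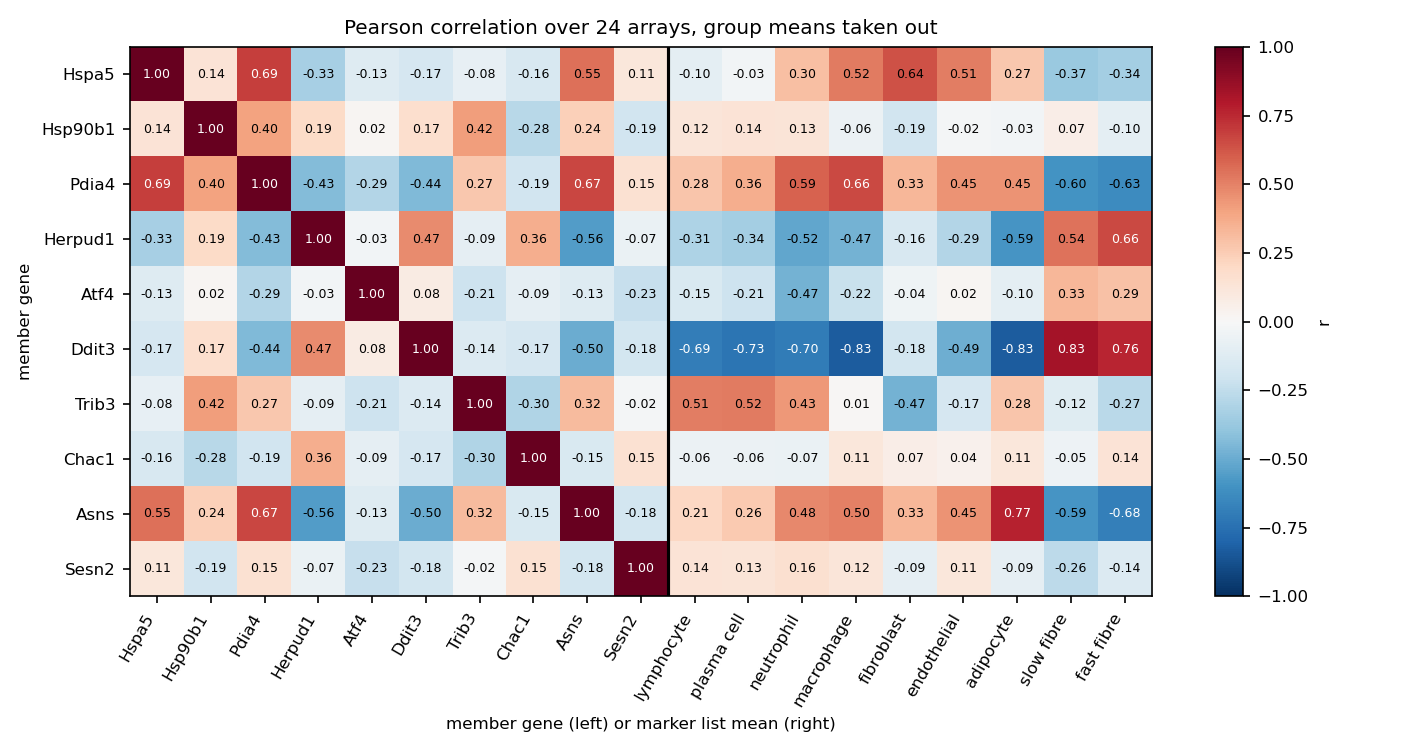
Pearson correlation over 24 arrays, group means taken out, between members (left of the line) and of each member with the mean of 9 marker lists (right). Red is positive and blue negative: Hspa5, Pdia4 and Asns go together (0.55 to 0.69), and Ddit3 goes with slow fibre genes (0.83) and against macrophage and adipocyte genes (-0.83).

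**Figure D5:**
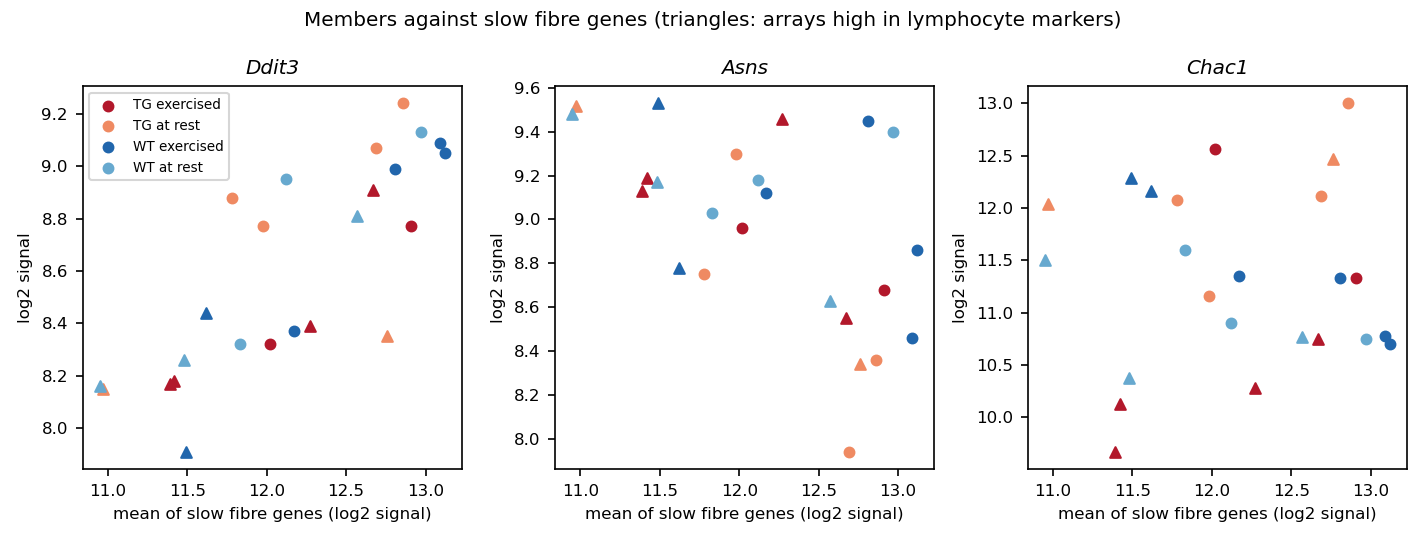
Log2 signal of Ddit3, Asns and Chac1 against the mean log2 signal of 13 slow fibre genes, 1 point per array, coloured by group. Triangles are the 11 arrays high in lymphocyte markers: Ddit3 climbs along the axis, Asns declines, and Chac1 follows no line, with the exercised TG triangles at 9.67 to 10.75.

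Genes around the members were read from 8 lists chosen for the 2 arms, and in each the count of called genes was 0 in all 7 comparisons. Adjusted for the 2 tissue means, 1 ER chaperone or folding gene was called between genotypes after exercise and 2 over both states. Over all 14984 features (1 probe per symbol) 49.3% were higher after the run averaged over genotypes, with a median difference of -0.002. Of 15 other ER chaperones and folding enzymes tested, 14 had a higher mean after the run, with a median of 0.11. In TG mice it was 14 of 15 with a median of 0.25, where 46.6% of all features were higher, and in WT mice 6 of 15 with a median of -0.03, where 51.7% were. The difference between the effects had a median of 0.20, with 12 of 15 above 0. Over the lymphocyte-low arrays the TG count was again 14 of 15 (median 0.23). In another setting, adjusted for the 2 tissue means, the WT count was 12 of 15 in place of 6, so the low WT count depends on this choice. Between genotypes, 13 of the 15 had higher means in TG than in WT mice after exercise (median 0.21), where 48.4% of all features did. At rest 7 of 15 did (median -0.05), where 52.2% of all features did. Over both states 12 of 15 did (median 0.11, smallest adjusted p 0.0686 in limma), where 49.9% of all features did. Macrophage genes also had higher means after the run in TG mice, 11 of 11 with a median of 0.43, against 2 of 11 in WT mice. Neutrophil genes did in 12 of 12 in TG mice (median 1.29) and in 8 of 12 in WT mice (median 0.10). The part of either list in the chaperone values was not tested. Sdf2l1, a luminal partner of ER chaperones, stood at 7.05 ± 0.61 in exercised TG and 6.30 ± 0.95 in TG at rest, and at 6.06 ± 0.54 in exercised WT and 6.42 ± 0.66 in WT at rest (SD, n = 6 each). Its run effects differed by 1.10 (SE 0.54, adjusted p = 0.935). Txndc5, a thioredoxin-domain isomerase, gave 0.24 (SE 0.09) in TG and -0.01 (SE 0.09) in WT mice. Creld2 (0.28, SE 0.16) and Dnajc3 (0.19, SE 0.12) had higher means after the run averaged over genotypes.

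Among sensors and their factors (9 of 10 tested) 6 had higher means after the run averaged over genotypes (median 0.04). Xbp1, the factor that IRE1 splices, had higher means in TG than in WT mice. Exercised TG arrays ranged from 12.29 to 12.61 and exercised WT arrays from 11.81 to 12.16. TG arrays at rest ranged from 11.75 to 12.57, against 11.85 to 12.14 in WT at rest. Between genotypes after exercise no gene of this list had an adjusted p under 0.552 (limma). TG minus WT over both states was 0.30 (SE 0.08, adjusted p = 0.239). Xbp1 is also a plasma cell gene, one of 6 tested in that list. All 6 had higher means in exercised TG than in exercised WT mice (median 0.39), but at rest 1 of 6 was higher in TG than in WT (median -0.21), where Xbp1 itself averaged 12.21 in TG and 12.03 in WT mice. The list's part was not tested. Mbtps2, the protease that releases ATF6, differed by -0.28 after the run (SE 0.09, adjusted p = 0.893), and Creb3l2 by 0.15 (SE 0.12). Creb3l1 gave 0.29 (SE 0.19) in TG and -0.40 (SE 0.19) in WT mice. Mbtps2 (group means 4.82 to 5.16) and Creb3l1 (4.92 to 5.32) lay close to the detection limit. Of 14 degradation and translocation genes 10 had a higher mean after the run averaged over genotypes (median 0.05), 12 had a higher mean after the run in TG mice (median 0.12) and 5 had one in WT mice (median -0.03). Sec61a1, the channel subunit of the ER, gave 0.40 (SE 0.12, adjusted p = 0.889) in TG and 0.05 (SE 0.12) in WT mice, and Syvn1, the ubiquitin ligase HRD1, 0.30 and -0.03 (SE 0.14 each). Ube2j1 (0.02 and 0.31, SE 0.14 each) and Sec63 (0.04 and 0.22, SE 0.10 each) stood in the other order.

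On the ATF4 side Atf3, a stress-induced factor of the ATF family, had higher means after the run. It ranged from 7.02 to 10.30 in exercised TG, against 6.05 to 7.98 in TG at rest, and from 7.17 to 10.51 in exercised WT, against 6.24 to 7.69 in WT at rest, so the groups overlapped in both genotypes. The averaged difference was 1.87 (SE 0.41, adjusted p = 0.285). Stc2, a secreted glycoprotein, gave 0.47 (SE 0.16, adjusted p = 0.945) and Sesn3, close to the detection limit (group means 4.88 to 5.22), 0.30 (SE 0.15). Of 14 such factors tested 10 had higher means after the run (median 0.08). Among the kinases and phosphatase subunits of eIF2α control and their partners (6 of 8 tested) 5 of 6 had higher means after the run (median 0.08), and Ppp1r15a (0.15, SE 0.16), Nck1 (0.09, SE 0.11), Ern1 (0.06, SE 0.09) and Eif2ak1 (0.06, SE 0.11) had differences within their errors. The run effects of Vldlr and Vegfa differed by -0.39 and -0.34 between genotypes (SE 0.21 each).

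Amino acid genes, the other main output of ATF4, showed small differences. Of 7 enzymes tested 6 had a higher mean after the run (median 0.04), among them Aldh18a1 (0.19, SE 0.10), Mthfd2 (0.15, SE 0.12) and Gpt2 (0.12, SE 0.16), while Shmt2 gave -0.03 (SE 0.14). Of 7 transporters 5 did (median 0.14), with Slc38a2 at 0.25 (SE 0.13) and Slc7a6 at 0.22 (SE 0.11). Slc7a11, the cystine carrier that supplies glutathione synthesis, gave 0.70 (SE 0.31) in TG and 0.02 (SE 0.31) in WT mice, and Slc1a5 0.22 and -0.28 (SE 0.24 each). Slc7a11 (group means 5.26 to 5.96) and Slc1a5 (4.67 to 5.28) lay close to the detection limit, where the offset compresses differences. Aminoacyl-tRNA synthetases, which charge tRNA with amino acids, had counts opposite to the chaperones within each genotype. That held without adjustment for the 2 tissue means. With it, most genes of both lists had higher means after the run in WT mice. Without it and averaged over genotypes, 11 of 18 synthetases had a higher mean after the run (median 0.04). In TG mice 5 of 18 did (median -0.07), and in WT mice 17 of 18 (median 0.16). The difference between these effects was below 0 in all 18, with a median of -0.16 against -0.023 over all features. Among those named, Iars and Mars1 stood at -0.42 each (SE 0.19 and 0.24), with Nars at -0.26 (SE 0.17), Tars at -0.15 and Vars at -0.09 (SE 0.22 each). Under median scaling, where the median over all features was 0.096, 13 of 18 stayed below 0 and all 18 below that median. Slow fibre genes had like counts, with 2 of 13 higher after the run in TG mice (median -0.11) and 13 of 13 in WT mice (median 0.40). Adjusted for the 2 tissue means, 4 of 18 synthetases were higher in TG mice (median -0.07) and 13 of 18 in WT mice (median 0.04), and 17 of 18 differences between the effects stayed below 0 (median -0.09).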

How the data were processed

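Illumina mouse bead arrays were hybridised with biotin-labelled cRNA from 24 samples, as the labels' protocols state. Per the file headers, the deposited raw table gives an intensity for each probe on each array. It also gives a deposited detection p-value for each intensity. A second deposited table holds the submitters' log2 values, for which the submitters' processing notes list limma 3.20.8 under R 3.1.1. Other upstream software is not stated there.

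Intensities were background-corrected (normexp, negative controls inferred from the detection p-values), quantile normalised and taken to log2 with an offset of 16 (neqc, limma 3.58.1, R 4.3.3). These values differed from the submitters' log2 values by at most 0.0269. Of 45281 probes, 21788 with a detection p under 0.05 on at least 6 arrays were tested. Groups came from the labels' titles. One mean per group was fitted (20 residual degrees of freedom), and 7 contrasts were tested with moderated statistics (eBayes) and Benjamini-Hochberg adjustment over all tested probes. The code was run on simulated data with independent noise for each probe and changes set in exercised WT arrays. Those data lack the tissue differences that probes share on these arrays, so they do not show the error rate here. Named probes are the brightest per gene, and probe genes came from the platform annotation, which gave 34885 probes 1 symbol, 18 several and 10378 none. Named genes beside the members were, per list, the 3 with the smallest p in the averaged run effect and the 2 for the difference between run effects, and for Hspa5, Asns and Chac1 the 5 most alike. The members, lists and tests were chosen with earlier results of these data known. The 12 other processing choices and the removal of each array in turn are given in the closing section. Slides and scan dates are not analysed here. The number of arrays limits the precision.

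Replicate numbers are shared between groups in part. Between TG and WT at rest the 3 shared numbers had deviations that correlated at 0.321, 0.655 and 0.399. Arrays with different numbers were not compared, so these values do not show that the numbers pair arrays. In the other 3 pairs of groups checked, which were those compared directly, at least 1 shared number correlated under 0.1.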

Additional observations from a re-analysis of the deposited data

Results flagged for a closer look

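In 3 of 64 combinations of member probe and group 1 array stood apart from the other 5 by Dixon's 95% criterion, which chance meets in about 1 in 20 groups. All 3 were WT arrays at rest, and no explanation was tested. Hsp90b1 was lowest in replicate 11, at 11.59, with the next array at 12.06. Leaving out single arrays gave averaged run differences of Hsp90b1 from 0.28, without that array, to 0.36. Herpud1 was highest in replicate 6, at 13.07, with the next array at 12.68. Atf4 was lowest in replicate 10, at 12.09, with the next array at 12.37.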

How the results depend on the processing

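The 7 comparisons of 10 members gave 70 differences, recomputed under 36 other settings: 12 other choices and 24 removals of 1 array. In 40 of the 70 the sign never changed, including all 12 with an unadjusted p under 0.05. An unchanged sign does not mean an unchanged size. On the lymphocyte-low arrays the Chac1 difference between run effects was -0.09 in place of -1.81. The Chac1 run difference in TG mice was -0.14 there in place of -1.35. The 30 whose sign changed somewhere had intervals that include 0. The count of members called stayed at 0 except for genotype over both states, where Herpud1 made it 1 with the tissue means as covariates, and leaving out single arrays gave 0 to 1, the 1 being the second Herpud1 probe without replicate 8 of exercised TG. The cause was not tested.

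The arrays limit what can be called. The count of all probes called after the run averaged over genotypes was 2, and 53 with the tissue means as covariates, but 0 on the lymphocyte-low arrays. In TG mice it was 1, and 11 with the covariates, but 0 under median scaling, the replicate block, the lymphocyte-low arrays or only the 2 groups. In WT mice it was 0, and 2 with array weights. Between genotypes, at rest, after exercise and over both states, it was 17, 19 and 49. It was 34, 40 and 135 with the covariates, 6, 10 and 31 for probes detected on all arrays, and 4, 3 and 15 on the lymphocyte-low arrays. At rest it was 11 with 1 probe per symbol, and after exercise 8 with only the 2 groups. Leaving out single arrays gave 2 to 5 after the run averaged over genotypes (5 without replicate 6 of exercised WT), 0 to 2 in TG mice, 0 to 1 in WT mice, and 9 to 23 between genotypes after exercise (9 without replicate 2 or 3 of exercised WT). Median scaling moved the median of all probes by up to 0.122, for the difference between the run effects. With the replicate number as a block, those counts were 3, 3 and 8, no member was called, Chac1 gave -1.38 (SE 0.36) for the run in TG mice and 1.13 (SE 0.41) between genotypes at rest, and Herpud1 0.33 (SE 0.11) between genotypes. Searching only the 150 bases before the start, 2 members in place of 4 held the composite site, because the sites of Chac1 and Trib3 lie outside that window, while the members holding an ER stress element stayed 2 and 1, although the Hsp90b1 copy from -212 to -194 lies outside it. Of all promoters, 27 in place of 39 then held the first element and 8 in place of 12 the second.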
